A study of Mus musculus with 16 samples.

Results

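Trimethylation of lysine 4 of histone H3 (H3K4me3) was compared between wild-type and Setd5+/- neural stem cells over all autosomal islands, the stretches of the genome that the authors called as enriched in each library. Members were the islands of both H3K4me3 lists on the 19 autosomes, 22039 in wild type and 22614 in Setd5+/- cells, out of 213103 islands in the 13 deposited lists of the series. The 2 lists held 4537175 and 4969248 reads inside autosomal islands. Each genotype had 1 H3K4me3 library, so every difference below is a difference between 2 libraries with no replicate check, and no p-value is given.

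The cells were neural stem cells from the telencephalic cortex of mouse embryos at day E14.5, grown as neurospheres with bFGF and EGF and then fixed on Matrigel with 1% formaldehyde. Both genotypes had the same culture, antibody and library protocol per the labels, and Setd5+/- denotes heterozygosity at Setd5, with no other allele or agent named. The sources used here name neither the strain nor the number of embryos behind a library. The series asks what SETD5, named in its title as a methyltransferase acting on lysine 36 of histone H3, does to histone marks in these cells.

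H3K4me3 is laid down by the SET1 and MLL enzyme complexes and is concentrated around transcription start sites, above all those in CpG islands. Narrow H3K4me3 is found at most expressed genes and at many silent developmental genes that also carry the Polycomb mark H3K27me3, while broad domains often cover genes of cell identity. Weak H3K4me3 is also found at enhancers, next to H3K4me1 and H3K27ac.

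Sequences immediately upstream of transcription start sites are shown first, because the islands found in 1 genotype only lay over promoters of very different CpG content. They are the 250 bases before the RefSeq start (build GRCm38.p6) of 5 genes described below whose start lay within an island of 1 genotype only, written 5′ to 3′ on the strand of the gene, with each CG in capitals. Lrrtm4, Aldh1l1 and Barhl2 had the island in wild type only, and Hoxa3 and Cybrd1 in Setd5+/- cells only.
Lrrtm4: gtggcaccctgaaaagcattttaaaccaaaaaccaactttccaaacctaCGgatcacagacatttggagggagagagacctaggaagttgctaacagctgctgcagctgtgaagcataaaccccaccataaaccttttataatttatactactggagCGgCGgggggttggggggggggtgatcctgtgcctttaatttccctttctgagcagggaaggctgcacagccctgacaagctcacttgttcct
Aldh1l1: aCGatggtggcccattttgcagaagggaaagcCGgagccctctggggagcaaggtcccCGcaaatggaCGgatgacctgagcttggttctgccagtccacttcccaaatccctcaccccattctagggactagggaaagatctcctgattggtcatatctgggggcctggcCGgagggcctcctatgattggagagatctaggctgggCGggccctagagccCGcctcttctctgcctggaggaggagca
Barhl2: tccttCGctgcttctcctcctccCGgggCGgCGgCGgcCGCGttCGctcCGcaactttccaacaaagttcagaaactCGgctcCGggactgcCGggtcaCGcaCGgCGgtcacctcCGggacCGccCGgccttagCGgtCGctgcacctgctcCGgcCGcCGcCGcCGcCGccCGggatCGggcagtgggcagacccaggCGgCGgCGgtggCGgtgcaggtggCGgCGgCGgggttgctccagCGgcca
Hoxa3: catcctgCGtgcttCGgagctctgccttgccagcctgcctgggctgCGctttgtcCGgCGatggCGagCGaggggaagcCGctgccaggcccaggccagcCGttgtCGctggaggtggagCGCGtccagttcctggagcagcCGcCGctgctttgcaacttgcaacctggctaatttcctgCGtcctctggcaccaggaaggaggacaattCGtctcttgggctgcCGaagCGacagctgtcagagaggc
Cybrd1: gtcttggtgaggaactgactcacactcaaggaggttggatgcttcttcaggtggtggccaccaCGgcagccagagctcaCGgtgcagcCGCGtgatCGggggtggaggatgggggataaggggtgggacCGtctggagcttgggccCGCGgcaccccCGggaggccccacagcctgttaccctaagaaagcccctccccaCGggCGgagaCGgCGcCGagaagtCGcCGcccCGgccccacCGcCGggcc
Lrrtm4 (chr6:80018627-80018876, plus strand) held 3 CG, Aldh1l1 (chr6:90550543-90550792, plus) 7, Barhl2 (chr5:106458167-106458416, minus) 36, Hoxa3 (chr6:52213068-52213317, minus) 18 and Cybrd1 (chr2:71117804-71118053, plus) 19. The Hoxa3 start shown is the outer end of a gene record that spans Hoxa4, Hoxa5 and Hoxa6. CG is its own reverse complement, so the count is the same on both strands. Over 16979 starts on 15 autosomes (all those held in the promoter table apart from chromosomes 1, 4 and 15), the median was 10 CG in these 250 bases, 51.0% had 10 or more, and 6.77% had none. The 9215 starts within islands of both genotypes had a median of 17 CG, and the 7098 starts in no island had 2; the remaining starts lay in split, merged or other linked islands or in islands of 1 genotype only. The 273 starts within islands of wild type only had a median of 10 CG and the 73 within islands of Setd5+/- cells only had 11. Starts marked in 1 genotype only were therefore nearer to the average promoter than to the starts marked in both.

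Chromosomes 1, 4 and 15 stood apart from the other 16 autosomes and are described before them. On chromosome 1, 541 of 1827 Setd5+/- islands (29.6%) overlapped no wild-type island, while 129 of 1440 wild-type islands (8.96%) overlapped no Setd5+/- island. On chromosome 15 the shares were 19.7% (195 of 991) and 7.36% (64 of 869), and on chromosome 4 they were 15.5% (233 of 1499) and 12% (173 of 1447). Over the other 16 autosomes the Setd5+/- share ran from 7.44% on chromosome 19 to 15.0% on chromosome 18, and the wild-type share from 8.76% on chromosome 11 to 13.6% on chromosome 18. The density of an island, its reads per kb, was compared as a log2 ratio of Setd5+/- over wild type, scaled so that the median over shared islands of the other 16 autosomes is 0 (before scaling it was 0.07, or 1.05-fold). The median scaled log2 was 0.30 on chromosome 1, 0.17 on chromosome 15 and 0.07 on chromosome 4, against −0.03 (chromosome 16) to 0.05 (chromosome 13) elsewhere, and 78.1% of the shared islands of chromosome 1 lay above 0. Of the shared islands of chromosome 1, 54.3% were at least 400 bp wider in Setd5+/- cells and 6.91% were at least 400 bp narrower; 19.6% were more than 1.5-fold denser and 3.05% more than 1.5-fold less dense. By the same measures 39.4% of the shared islands of chromosome 15 were wider, 12.2% narrower, 10.5% denser and 1.95% less dense. On chromosome 4, 30% were wider, 13.7% narrower, 10.3% denser and 3.37% less dense. Chromosome 4 was split at 30 and 80 Mb, bounds taken from earlier work on these data. Between them 120 of 435 Setd5+/- islands (27.6%) had no wild-type island, against 10.6% of the 1064 islands elsewhere on that chromosome. Because the bounds were known beforehand, this contrast does not locate the difference anew. The input samples were not analysed here and copy number was not measured. Every other count below is over the other 16 autosomes unless a chromosome is named.

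**Figure D1:**
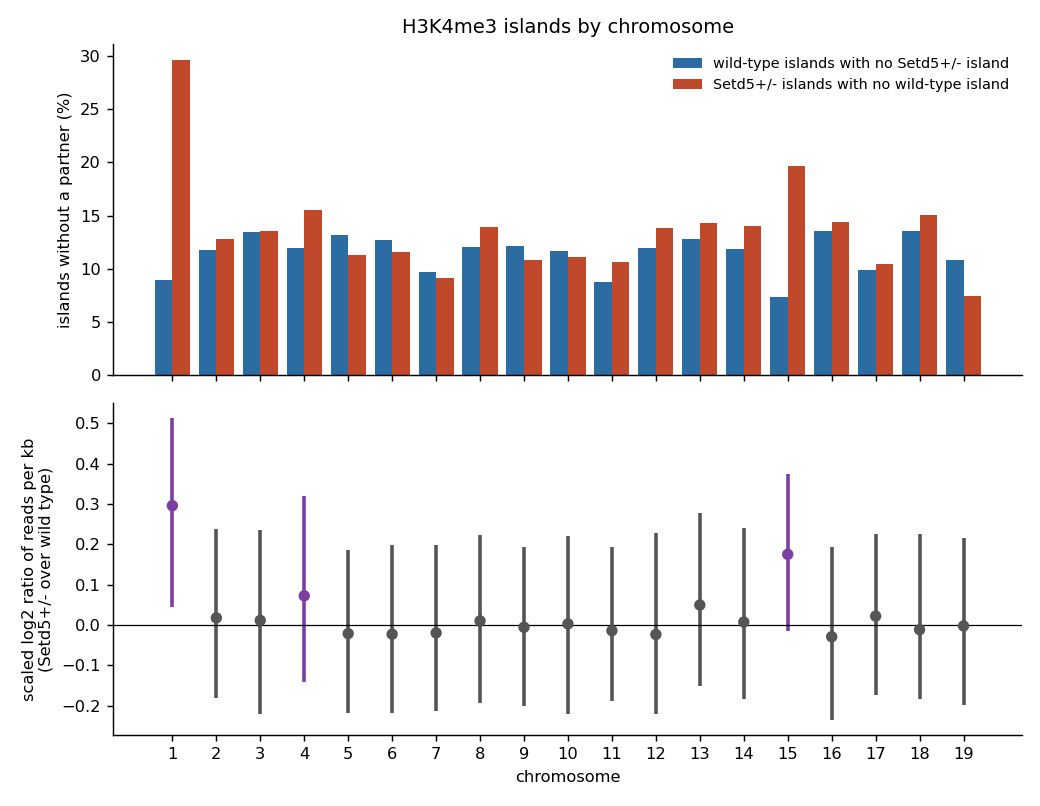
Upper panel: share of islands (%) of each H3K4me3 list with no overlapping island in the other genotype, for wild type (blue) and Setd5+/- cells (red), by chromosome. Lower panel: median (point) and quartiles (line) of the scaled log2 ratio of reads per kb over islands present in both; chromosomes 1, 4 and 15 are purple, and the chromosome 1 median of 0.30 and chromosome 15 median of 0.17 lie above all others.

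On the other 16 autosomes the 2 lists were of nearly the same size. Wild type had 18283 islands over 34.9 Mb with 3775856 reads, and Setd5+/- cells had 18297 islands over 36.2 Mb with 3947946 reads. Islands of the 2 lists that overlapped by 1 bp or more were linked, and 15583 islands of each list had exactly 1 partner. There were 2151 wild-type islands with no partner (11.8%, 95% Wilson interval 11.3 to 12.2) and 2203 Setd5+/- islands with no partner (12%, 11.6 to 12.5). Such intervals describe counting error over islands alone, because each genotype has 1 library and islands are not replicates. Reads amplified by PCR and lacking molecular identifiers also need not stem from separate molecules. A further 154 wild-type islands were split into several Setd5+/- islands, 152 of them into 2, and 189 Setd5+/- islands merged several wild-type ones. The remaining 6 groups had several islands on both sides.

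Islands without a partner were weak. Their median was 30 reads in wild type and 35 in Setd5+/- cells, against 166 and 180 for islands with 1 partner, and their median width was 1000 bp in both. Below 30 reads, 47.3% of the 2200 wild-type islands and 53.5% of the 977 Setd5+/- islands had no partner. At 100 to 199 reads the shares were 2.57% and 1.15%, and at 200 reads or more only 3 of 7252 wild-type islands and 6 of 7580 Setd5+/- islands lacked a partner. The lists also differed at their lower end, since wild type held more islands under 30 reads and Setd5+/- cells more of 30 to 49 reads (2900 against 3360). Few of these islands were near misses: 65 wild-type and 74 Setd5+/- islands without a partner lay within 1 kb of an island of the other list.

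**Figure D2:**
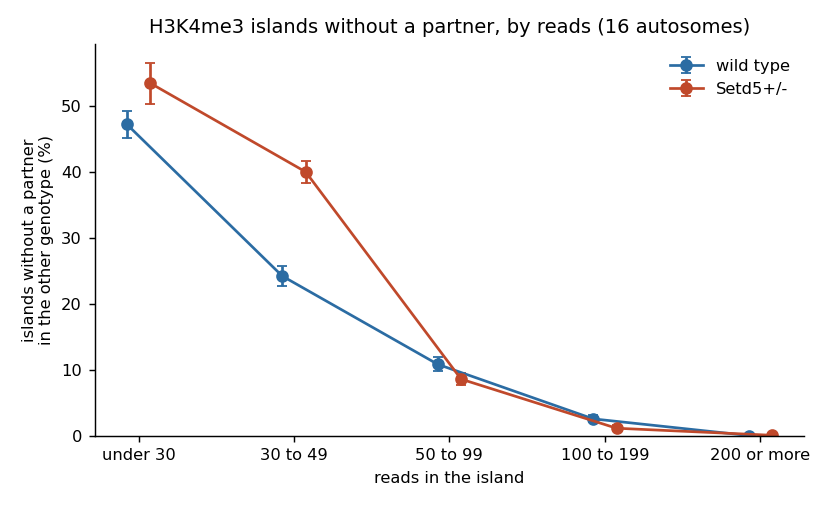
Share of H3K4me3 islands (%) on the 16 autosomes that had no partner in the other genotype, by reads in the island, for wild type (blue) and Setd5+/- cells (red), with 95% Wilson intervals. The share falls from 47.3% and 53.5% under 30 reads to close to 0 at 200 reads or more.

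Few strong islands lacked a partner, and those with most reads within 1 kb of a gene end are named here. Islands over a start farther than that from both ends in the gene table were not ranked. Examples are Bcat1 in wild type (172 reads), and Fgd4 (221), Cnpy1 (172) and Otx2 (138) in Setd5+/- cells. The 8 wild-type islands with most reads among those within 1 kb of a gene end lay at Lrrtm4, Aldh1l1, Barhl2, Cbln2, Shroom3, Cgas with Mto1, Zfp941, and Fbxl8 with Hsf4. At Lrrtm4, which encodes a synaptic adhesion protein, wild type had an island of 254 reads over 2.4 kb, and the nearest Setd5+/- island was 1638.8 kb away. In such bulk libraries, a mark in fewer cells and a weaker mark in every cell cannot be told apart. Aldh1l1, a folate enzyme gene widely used as an astrocyte marker, had 224 reads over 3.8 kb in wild type and no Setd5+/- island within 15.0 kb. The homeobox gene Barhl2 had 219 reads over 3.0 kb at its start and a second wild-type island of 22 reads over 0.6 kb at the other end, with no Setd5+/- island within 114.2 kb of the first. Cbln2, encoding a secreted synapse organiser, had 193 reads, and Shroom3, a regulator of cell shape through actin, had 191. Cgas, the cytosolic DNA sensor, shared an island of 177 reads with the neighbouring gene Mto1, whose inner island was present in both genotypes with 333 and 341 reads.

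Among the 8 strongest Setd5+/- islands of this kind were those at Hoxa3, Hoxa7, Hoxa4, Nr2f2, Hoxa9, Cybrd1 and Hoxa2. Hoxa genes specify position along the body axis behind the forebrain, and 5 of the 8 islands were in that cluster. The Hoxa3 record used, from 52169059 to 52213067, spans Hoxa4, Hoxa5 and Hoxa6. At its upstream end, 1023 bp from Hoxa7, Setd5+/- cells had an island of 507 reads over 4.2 kb. Hoxa7 itself had 267 reads over 2.2 kb. A further Setd5+/- island of 531 reads lay inside the Hoxa3 record, 4.7 kb from its nearest end. It had most reads of all islands without a partner. Wild type had an island of 62 reads at Hoxa5 in the same cluster, and the Hoxa2 island of 130 reads directly abutted a wild-type island of 38 reads. Nr2f2, encoding the nuclear receptor COUP-TFII, had 184 reads over 2.6 kb in Setd5+/- cells, and an inner island of 41 reads in wild type corresponded to 500 reads in Setd5+/- cells. Cybrd1, encoding an iron reductase, had 152 reads.

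The other marks at these islands, which took no part in choosing them, were not the same for the 2 sets of 8. Of the 8 wild-type islands, 1 overlapped H3K27ac in wild type (Aldh1l1) and none did in Setd5+/- cells. Of the 8 Setd5+/- islands, 6 overlapped H3K27ac in Setd5+/- cells and none did in wild type. All of these but Cybrd1 lay in the Hoxa cluster. Over all Setd5+/- only islands near gene ends, 20.7% overlapped Setd5+/- H3K27ac. Over all wild-type only islands near gene ends, 4.47% overlapped wild-type H3K27ac. Nr2f2 overlapped H3K27ac in neither genotype. H3K27me3 was present in wild type over 7 of the 8 Setd5+/- islands and in Setd5+/- cells over 1 of them, against 3 and 2 of the 8 wild-type islands. The 7 are not separate cases, since 5 lay in the Hoxa cluster and those at Hoxa3, Hoxa7 and Hoxa9 sat under 1 H3K27me3 island of 8510 reads. Over all Setd5+/- only islands near gene ends the wild-type H3K27me3 share was 21.9%, and over all wild-type only ones it was 22.4%. The H3K27me3 difference between the 2 sets of 8 was thus not seen over the classes. The wild-type H3K27me3 island over Nr2f2 had 3273 reads. Cybrd1 was the exception with no H3K27me3 island in either genotype.

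The chromosomes kept apart were ranked in the same way, among islands without a partner within 1 kb of a gene end. On chromosome 1 the strongest such Setd5+/- islands were 2 at En1, a homeobox gene of the midbrain and hindbrain, with 278 and 232 reads. A wild-type H3K27me3 island of 3155 reads covered both of them, and no H3K27me3 island did in Setd5+/- cells. On chromosome 4 they were at Tdrd7, a tudor domain gene, with 208 reads and at the homeobox gene Dmbx1 with 142 reads, and on chromosome 15 at Fbln1, encoding the matrix protein fibulin-1, with 90 reads and at the cadherin gene Celsr1 with 74 reads. The strongest wild-type islands of the same kind were at Esrrg (116 reads) and Col19a1 (105 reads) on chromosome 1. On chromosome 4 they were at Tmco4 (166) and Nt5c1a (155), and on chromosome 15 at Ccdc166 (74) and Cthrc1 (56).

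The classes differed in where they lay relative to genes. Distance was taken from the island's edge to the nearest end of a protein-coding gene of RefSeq, of which both ends count because the gene table has no strand. Of the islands with 1 partner, 57.5% (8957) lay within 1 kb of a gene end. Of the islands without a partner, 20.8% (447; interval 19.1 to 22.5) did in wild type and 7.67% (169; 6.63 to 8.86) did in Setd5+/- cells. Islands more than 10 kb from any gene end made up 29.5% of those with a partner, 58.4% of those in wild type only and 72.3% of those in Setd5+/- cells only. Split and merged islands were mostly at genes, 76.0% and 74.1% within 1 kb of an end. The order was the same when only starts with a known strand were used on 15 of the 16 autosomes: 52.0% of islands with 1 partner, 16.1% of wild-type only and 5.07% of Setd5+/- only islands lay within 1 kb of a start. Among islands of at least 50 reads without a partner, 139 wild-type and 35 Setd5+/- islands lay within 1 kb of a gene end.

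**Figure D3:**
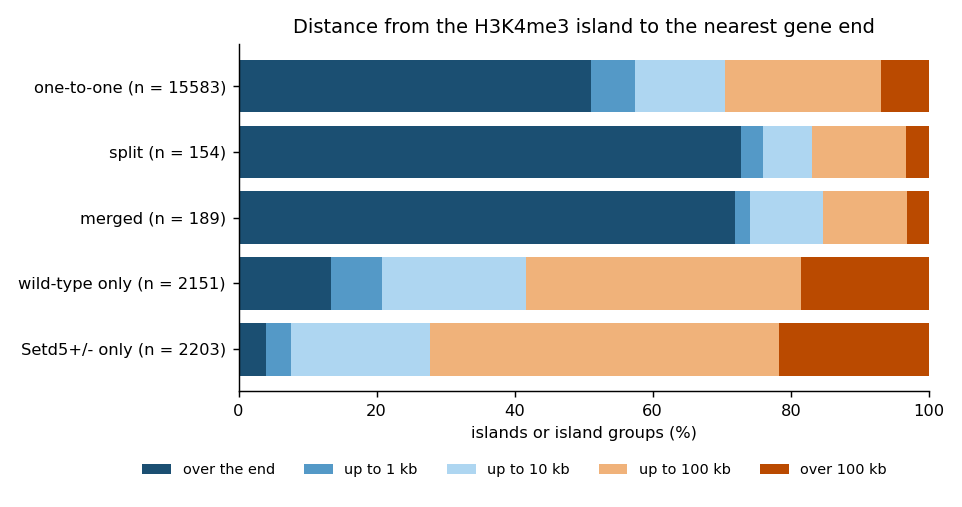
Share (%) of each class of H3K4me3 island by the distance from its edge to the nearest protein-coding gene end, on the 16 autosomes; split and merged islands are counted as groups. Dark blue, over the end itself, covers 51.1% of islands with 1 partner, 13.4% of wild-type only and 3.99% of Setd5+/- only islands.

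Counted by genes, more had an island at an end in wild type only than in Setd5+/- cells only. Of 17357 protein-coding genes, 10523 had an H3K4me3 island within 1 kb of an end in the wild-type list, 10232 in the Setd5+/- list and 10087 in both. There were 436 genes with one in wild type only (2.51%) and 145 in Setd5+/- cells only (0.835%). These counts include genes whose island was called in both genotypes but came within 1 kb of the end in only 1, such as Neurod1 and Orc4 below. With both lists reduced to the same covered length, dropping the islands of lowest density, the counts were 475 and 125. When an island of at least 50 reads was required and the other list was kept whole, they were 174 and 64. The part that the larger number of wild-type islands under 30 reads (2200 against 977) plays in this difference was not tested. On chromosome 1, 24 of 1204 genes (1.99%) had an island at an end in wild type alone and 25 (2.08%) in Setd5+/- cells alone.

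Among islands with 1 partner, width and density were compared next. At least 400 bp wider in Setd5+/- cells, called widened, were 3966 islands (25.5%), and at least 400 bp narrower, called narrowed, were 2843 (18.2%); 3404 had the same width to the base. Islands more than 1.5-fold denser in Setd5+/- cells numbered 892 (5.72%), and those more than 1.5-fold less dense numbered 699 (4.49%). Divided by the joint span of both islands, 1497 were higher and 818 lower. The joint span is equal for both genotypes, so this compares the reads inside each genotype's own called limits. Width and density moved against each other, which is in part built in, since density is reads divided by the same called width. The joint-span values are also tied to width, since wider called limits take in more ground. Widened islands had a median scaled log2 density of −0.20 and narrowed islands 0.19, and over the joint span the medians were 0.20 and −0.18. A widened island thus usually held more reads, relative to the median, at a lower density within its called limits. Reads outside the called limits are unknown, so the same stretch was not compared. The SD of the density ratios was 0.42 log2 units over islands with under 100 reads in both libraries together, was largest at 0.47 with 100 to 199 reads, and came down to 0.23 over those with 800 or more, where counting alone gives a median standard error of 0.09. Islands of 800 or more reads past 1.5-fold made up 0.52% (denser) and 1.33% (less dense).

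The direction of these differences varied with distance from genes. Over a gene end the median scaled log2 density was −0.03, with 23.8% of 7963 islands widened and 21.3% narrowed. It was 0.02 for islands 1 to 10 kb away and 0.08 for those 10 to 100 kb away, and of the 1087 islands more than 100 kb away 33.1% were widened and 14.0% narrowed. Distant islands were also narrower and weaker, with a median of 52 and 66 reads against 298 and 308 at gene ends. Within a single width class the contrast remained: of islands over 1200 and up to 2400 bp, 20.5% were widened and 18.8% narrowed within 1 kb of an end, and 33.6% and 14.6% more than 10 kb away. Among islands up to 1200 bp wide the same shares were 18.2% and 15.2% near ends, and 25.7% and 11.9% far from them. For 6640 islands with starts on 1 strand, the edges were also compared by side. The upstream edge lay at least 400 bp further out in Setd5+/- cells at 737 islands and at least 400 bp further in at 518. The downstream edge lay further out at 1019 and further in at 1056, so the 2 sides did not show the same balance.

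By width, the median density differed little between classes. With classes set by the mean width of the pair, the median scaled log2 density was 0.02 over 303 islands up to 600 bp, 0.06 over 3608 islands above 600 and up to 1200 bp, 0.01 up to 2400 bp, −0.04 up to 4800 bp and −0.09 over 366 islands above 4800 bp. Widened islands exceeded narrowed ones in each class, by 16.4 percentage points above 4800 bp and by 3.35 above 2400 and up to 4800 bp. Both measures depend on whose width sets the class. The median scaled log2 of islands up to 600 bp was −0.10 by wild-type width and 0.19 by Setd5+/- width. By wild-type width, islands above 4800 bp were differed by −8.50 percentage points (widened minus narrowed), and by Setd5+/- width islands above 4800 bp differed by 36 points.

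Among the shared islands at gene ends, some differed by several kb in width. Zfp703, a zinc finger gene, had 4.0 kb and 469 reads in wild type and 7.0 kb and 654 reads in Setd5+/- cells, with density at 117.2 and 93.4 reads per kb. The island of Soga1 and Tldc2 was 2.2 kb with 235 reads in wild type and 5.0 kb with 378 reads in Setd5+/- cells. C1ql3, a secreted synaptic protein gene, had 1.6 kb with 169 reads and 4.2 kb with 279 reads. In the narrowed direction, Rbm15, encoding a protein of the RNA methylation machinery, had 13 kb and 1714 reads in wild type and 6.0 kb and 883 reads in Setd5+/- cells, at 131.8 and 147.2 reads per kb. Sp8, a zinc finger factor of forebrain patterning, had 6.8 kb with 279 reads in wild type and 1.4 kb with 51 reads in Setd5+/- cells. Rnf43, an inhibitor of Wnt receptors, had 5.8 kb with 422 reads and 0.8 kb with 34 reads. Slitrk1, a neuronal membrane protein gene, had 125 and 29 reads, and Bcr had 119 and 20 reads. The values of Slitrk1 and Bcr are near the weak end of the lists in Setd5+/- cells.

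The 5 islands at gene ends with the largest density ratio of Setd5+/- cells over wild type had from 59 to 182 reads in wild type. Among shared islands of at least 50 reads in both, the imprinted gene Impact had 59 reads in wild type and 352 in Setd5+/- cells (scaled log2 2.35, counting interval 1.95 to 2.77). The Hoxa5 to Hoxa6 island had 62 and 474 reads (2.33; 1.95 to 2.74), and Anxa1, encoding the phospholipid-binding protein annexin A1, had 61 and 635 reads (2.23; 1.85 to 2.63). Ebf2 and Sp9, transcription factor genes of neuronal lineages, had 60 against 193 reads (1.61) and 182 against 553 reads (1.45). Wild-type H3K27me3 covered 3 of these 5 islands, and at Hoxa5 to Hoxa6 it was the island of 8510 reads named above. Over all 892 islands more than 1.5-fold denser, H3K27me3 was in wild type only at 7.96% and in both genotypes at 3.14%. Over all islands with 1 partner these shares were 2.53% and 2.88%, so the 5 are not typical of the class. At Ebf2 its island went from 1691 reads in wild type to 84 in Setd5+/- cells, and at Sp9 it had 826 reads in wild type and none was called in Setd5+/- cells.

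At the other end of the range stood a receptor gene, a gene of lymphatic vessels, 2 zinc finger genes and a protocadherin. Htr1b, encoding a serotonin receptor, had 413 reads in wild type and 59 in Setd5+/- cells (scaled log2 −1.88, counting interval −2.30 to −1.48). Zfp800 had 209 and 64 reads (−1.59), Ccbe1, needed for lymphatic vessel growth, had 251 and 52 (−1.47), Zscan22 had 171 and 65 (−1.47) and Pcdhb6, of the clustered protocadherins, had 139 and 65 (−1.39). Wild-type H3K27ac overlapped 2 of the 5 islands, Ccbe1 and Zscan22, and Setd5+/- H3K27ac overlapped none. Over all 699 islands more than 1.5-fold less dense, H3K27ac was in both genotypes at 16.7%, in wild type only at 15.9% and in Setd5+/- cells only at 3.58%. Over all islands with 1 partner these shares were 43.3%, 11.8% and 5.87%.

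**Figure D4:**
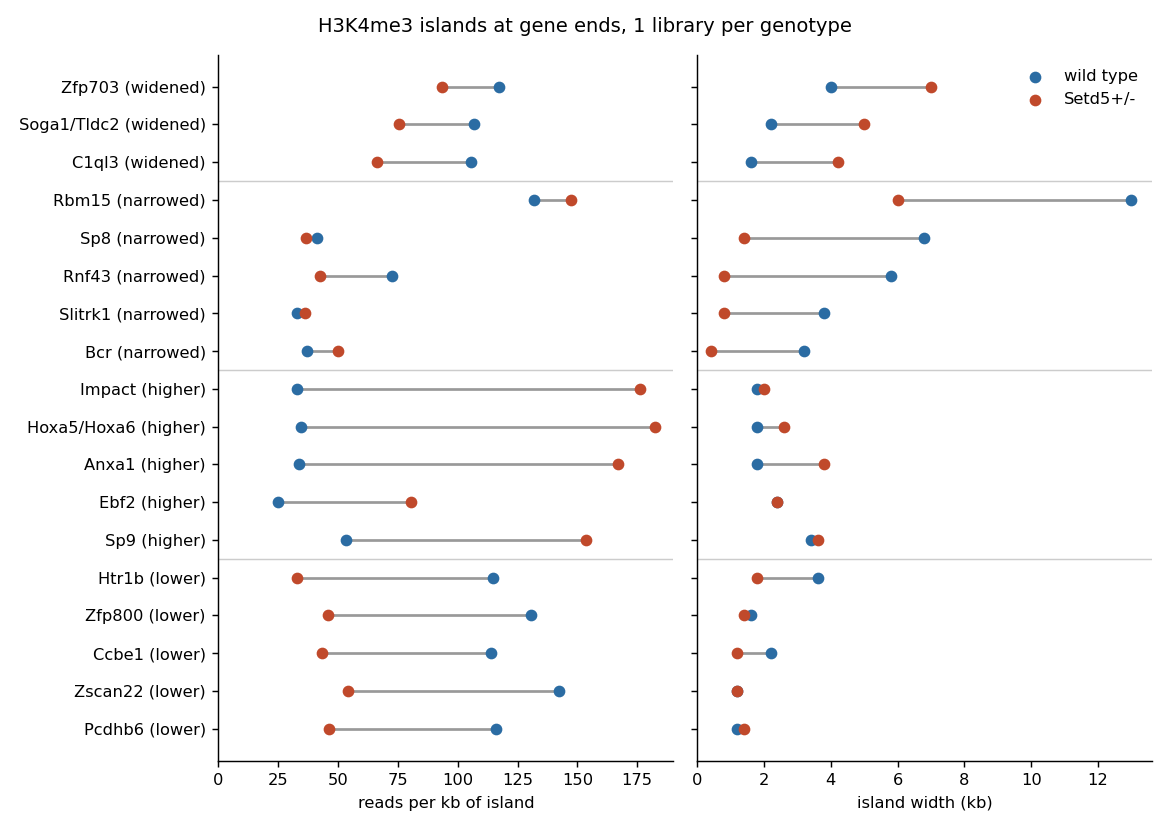
Reads per kb (left) and width in kb (right) of H3K4me3 islands at gene ends in wild type (blue) and Setd5+/- cells (red), for 3 widened and 5 narrowed islands with large changes in width and the 5 per direction with the largest change in density; each point is 1 library. The widened islands, such as Zfp703 (4.0 and 7.0 kb), are less dense in Setd5+/- cells, while islands with the largest density change differ less in width.

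Among the split and merged islands with most reads were those at Sox2, Cdkn1b, Zeb2 and Id2. The Sox2 island, over the central pluripotency and neural stem cell factor, was 13.6 kb with 2289 reads in wild type and was split in Setd5+/- cells into 10.6 kb with 1908 reads and 2.2 kb with 82 reads, 600 bp apart. At Cdkn1b, a cell cycle inhibitor gene, 14.2 kb with 1822 reads corresponded to 12.0 kb with 1532 reads and 1.0 kb with 49 reads. In the other direction, 2 wild-type islands of 7.8 and 3.2 kb at Zeb2, a factor of neural development, were joined in 1 Setd5+/- island of 12.4 kb with 1678 reads. At Id2, an inhibitor of differentiation factors, islands of 663 and 360 reads were joined in 1 of 1149 reads. Of the gaps that separated split islands 75% were 400 bp, and of those closed in merged islands 79.2% were, which is the smallest gap either list contains.

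The other marks were compared over whole classes next. H3K27ac, found at active promoters and enhancers, overlapped 55.1% of islands with 1 partner in wild type and 49.2% in Setd5+/- cells. It overlapped 13.5% and 8.0% of wild-type only islands and 29.1% and 32.6% of Setd5+/- only islands. H3K4me1, the enhancer mark, overlapped 61.7% of islands with 1 partner in wild type, 33.8% of wild-type only and 61.0% of Setd5+/- only islands. In Setd5+/- cells the same shares were 31.7%, 16% and 49.0%. Setd5+/- only islands thus met wild-type H3K4me1 about as often as islands with 1 partner did, and wild-type only islands met both marks less often in either genotype. The H3K4me1 lists covered 54.0 (wild type) and 32.7 Mb (Setd5+/-) and the H3K27ac lists 29.3 and 27.8 Mb, so the shares from the 2 lists of a mark rest on different covered lengths. SETD5-V5, the tagged protein mapped in wild-type cells, overlapped 2.93% of islands with 1 partner, 1.67% of wild-type only and 1.95% of Setd5+/- only islands.

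**Figure D5:**
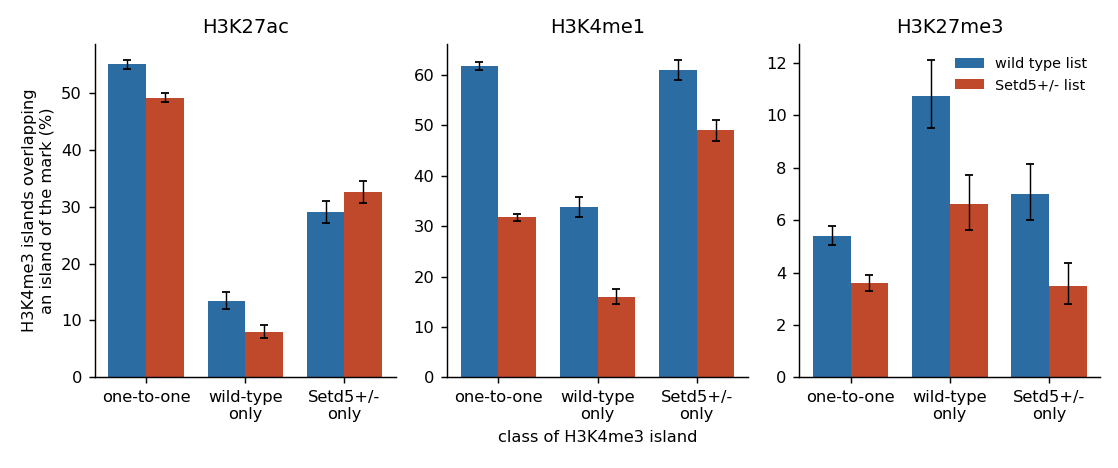
Share (%) of H3K4me3 islands with 1 partner, in wild type only and in Setd5+/- cells only that overlap an island of H3K27ac, H3K4me1 or H3K27me3 in the wild-type list (blue) or the Setd5+/- list (red), with 95% Wilson intervals, on the 16 autosomes; vertical axes differ. H3K4me1 of wild type covers 61.0% of Setd5+/- only islands and 33.8% of wild-type only islands.

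H3K27me3 was compared with H3K4me3 at gene ends by genes as well as by islands. At islands near gene ends, wild-type H3K27me3 overlapped 5.88% of islands with 1 partner, 22.4% of wild-type only islands and 21.9% of Setd5+/- only islands. Genes with a shared H3K4me3 island were sorted by H3K27me3 within 1 kb of either end, whether or not the 2 marks overlapped. Of 269 such genes with H3K27me3 in wild type only, 42 (15.6%) were more than 1.5-fold denser and 10 (3.72%) less dense in Setd5+/- cells. Of 95 such genes with H3K27me3 in Setd5+/- cells only, 1 (1.05%) was denser and 16 (16.8%) less dense, and 36 were narrowed against 15 widened. Where H3K27me3 was at an end in both, the counts were 25 and 31 of 360 genes, and where it was in neither they were 175 and 260 of 9155. H3K4me3 was thus denser more often at genes with H3K27me3 called at an end in wild type alone. It was less dense more often at genes with H3K27me3 called there in Setd5+/- cells alone. By presence of an island, genes marked in wild type only were more numerous in each H3K27me3 class, as over all genes (2.51% and 0.835%). Of all 528 genes with H3K27me3 at an end in wild type only, 47 (8.90%) had H3K4me3 in wild type only and 19 (3.6%) in Setd5+/- cells only. With H3K27me3 in Setd5+/- cells only these were 8 (3.19%) and 2 (0.797%) of 251 genes. With H3K27me3 in both they were 69 (8.49%) and 17 (2.09%) of 813, and with it in neither 312 (1.98%) and 107 (0.679%) of 15765. The H3K27me3 lists covered 35.2 and 27.9 Mb. For H3K27ac, 3.6% of 584 genes with the mark in Setd5+/- cells only were denser and 2.74% less dense, and of 1086 with it in wild type only 1.20% were denser and 4.42% less dense. With H3K27ac in both genotypes these shares were 0.963% and 1.28%, with it in neither 5.58% and 6.54%, and over all 9879 genes with a shared island 2.46% and 3.21%.

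Gene lists were read against all genes, of which 23.7% of 9879 with a shared island were widened and 21.6% narrowed, with a median scaled log2 of −0.03. Of the enzymes that write H3K4 methylation and their complex partners, 12 of 14 had an island at an end in both genotypes, and of 9 with a single shared island 2 were widened, 4 narrowed and none passed 1.5-fold. Kmt2a, an MLL enzyme gene, had 331 and 320 reads, and Wdr5, of the shared core of these complexes, had 293 and 308. Of the demethylase and reader genes, 13 of 14 were marked in both, and Ing4, a reader subunit of acetyltransferase complexes, had 337 reads in wild type and 206 in Setd5+/- cells (−0.78). Neural stem cell and radial glia genes were marked in both genotypes at 20 of 22, with a median of 758 and 820 reads, and none of their 17 single shared islands passed 1.5-fold. Vim, encoding the radial glia filament protein vimentin, had 6.4 kb with 1138 reads and 8.2 kb with 1325, and Egfr, the receptor of the EGF in the medium, had 6.2 kb with 1232 reads and 5.0 kb with 1033.

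Of 20 neuronal differentiation genes, 11 were marked in wild type and 10 in Setd5+/- cells, near the 60.6% and 59.0% of all genes. There were 9 in both genotypes, 2 in wild type only, 1 in Setd5+/- cells only and 8 in neither. At Neurod1, one of those counted in wild type only, the same island was called in both, with 72 and 63 reads, and its edge lay 964 and 1164 bp from the end. Of the 10 with a single shared island, 4 were more than 1.5-fold denser and 1 less dense, against 2.46% and 3.21% of all genes with a shared island. These 10 were weak, with a median of 87.5 and 95 reads against 311 and 321 over all genes. The 4 were Eomes, Dlx1, Dlx2 and Tubb3, of which Dlx1 is also the gene counted in Setd5+/- cells only. Eomes, a factor of intermediate progenitors, had 167 and 342 reads over 3.0 kb in both (0.96), Dlx2, an interneuron factor, had 103 and 246 reads (1.32), and its neighbour Dlx1 had 362 reads in Setd5+/- cells where wild type had 38 reads over 0.8 kb, further than 1 kb from an end. The pan-neuronal tubulin gene Tubb3 had 29 and 78 reads (0.87), of which the wild-type value is near the weak end of the list. The proneural gene Neurog2 had 151 reads over 2.8 kb in wild type and 45 reads over 1.4 kb in Setd5+/- cells (−0.82). Dlx1 and Dlx2 are neighbours and cannot be read as independent.

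Synapse genes were narrowed more often than widened in these libraries. Of the 19 with a single shared island, 11 were narrowed and 2 widened, against 21.6% and 23.7% of all genes, and 1 was denser and 2 less dense. Snap25, of the vesicle fusion machinery, had 3.0 kb with 290 reads in wild type and 1.6 kb with 126 reads in Setd5+/- cells. The glutamate receptor gene Grin2b had 3.0 kb with 239 reads and 1.6 kb with 98 reads, Gria1 had 102 and 34 reads (−1.17), and Nlgn1, a synaptic adhesion gene, had 5.0 kb with 660 reads and 3.6 kb with 376 reads. Grin2a had 132 and 226 reads over 3.0 kb in both (0.70). Camk2a had an island of 34 reads in wild type only.

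All 24 ribosomal protein genes were marked in both genotypes, with a median scaled log2 of −0.04, 4 widened, 3 narrowed and 1, Rplp0, more than 1.5-fold less dense (−0.83). Of the cell cycle genes, 26 of 29 were marked in both and 2 in wild type only, namely Cdkn1a and Orc4; neither lacked H3K4me3 in Setd5+/- cells. At Orc4 the same island had 744 and 707 reads and its edge lay 702 and 1702 bp from the end, and at Cdkn1a an island 2022 bp from the end had 578 and 473 reads. Cdk6, a G1 kinase gene, had 548 and 869 reads (0.65). Of 30 Hox genes outside chromosome 15, 4 were marked in both, 4 in Setd5+/- cells only and 22 in neither, and the 8 marked ones were all in the Hoxa cluster.

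Markers of other cell types were marked in part. Of 16 astrocyte and oligodendrocyte genes, 8 were marked in both, 1, Aldh1l1, in wild type only and 7 in neither. The marked ones include Gja1 (699 and 713 reads), Slc1a2 (287 and 203) and Cnp (209 and 228), while Gfap, Aqp4, Mog, Mag and Mobp had no island at an end. Of 13 microglia and blood genes, 8 were marked in neither, 4 in both and 1, P2ry12, in Setd5+/- cells only with 26 reads, while Aif1, Cx3cr1, Csf1r and Tmem119 had none. Of 13 endothelial and mesenchymal genes, 6 were marked in neither, 5 in both and 2 in wild type only, Col1a2 with 35 reads and Dcn with 26, while Pecam1, Cdh5 and Cldn5 had none. Islands at such genes can also sit in CpG-rich promoters of silent genes, so they do not count cells.

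Setd5 itself, on chromosome 6 from 113077262 to 113153432, had an island of 8.2 kb with 999 reads at its end in wild type and of 9.6 kb with 1191 reads in Setd5+/- cells, at 121.8 and 124.1 reads per kb. A second, inner island had 57 reads over 1.0 kb and 124 reads over 2.2 kb. An island does not tell the 2 alleles apart, which means that the genotype is not checked here.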

How the data were processed

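ChIP-seq reads had been checked with FastQC, aligned with Bowtie2 2.2.3 and called as islands with SICER 1.1, per the submitters' processing notes. Coordinates are on mm10 (GRCm38), per the same notes. The deposited lists give chromosome, start, end and a whole number taken, from its values, for the authors' counts of reads in each island, since the lists used here have no header that names it. Widths are multiples of 200 bp. Total library reads, SICER settings for H3K4me3 and use of the 3 inputs are not stated by these sources, so depth outside islands is unknown.

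Islands were paired by an overlap of 1 bp with Python 3.11.15, numpy 2.4.6 and pandas 2.3.3, intervals came from scipy 1.17.1 and figures from matplotlib 3.10.9. Genotypes were compared with 1 library each and no test. A single island's log2 interval is the exact conditional binomial one. Gene ends were 20665 autosomal protein-coding genes of RefSeq for GRCm38.p6, which also supplied strand and upstream sequence for 16457 of them, none on chromosome 18. Named genes were those, without predicted genes, within 1 kb of the 8 islands of 1 genotype only with most reads, of the 5 per direction with the largest change in width (no limit on reads), of the 5 per direction with the largest change in density (at least 50 reads in both), of the 3 split and 3 merged groups with most reads, of 2 islands per class on chromosomes 1, 4 and 15, and members of the 11 gene lists (264 autosomal entries) marked in 1 genotype; some genes that the rule gives are not reported here, and list genes given as examples were chosen after their values were seen. The members, lists and the chromosomes kept apart were chosen with earlier results of these data known. The 34 planned and 2 added alternatives are in the closing section. Pairing and distances were tested on simulated data.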

Additional observations from a re-analysis of the deposited data

How the results depend on the processing

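No paired analysis was possible because each genotype has 1 library. Of 102 alternative values of 35 results, 41 stayed within the limits set (1.5 times for a count, the 95% counting interval for another value), 57 moved and 4 reversed; 5 of them, with 2 settings added after seeing the data, use islands of at least 50 reads. The direction of the count of genes and of the gene-end shares was the same under every setting run.

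Without the lowest 25% of islands by density, 1338 islands were in wild type only, and with both lists cut to islands of at least 50 reads 832 were, against 1609 in Setd5+/- cells only, counts that include islands whose partner fell under 50 reads; of the islands without any partner in the whole lists, 408 in wild type and 334 in Setd5+/- cells had at least 50 reads, the opposite order; with equal covered length the order turned, 2448 against 1634. Joining islands under 1000 bp apart left 53 split and 82 merged islands, while none lay under 400 bp apart. Widened and narrowed islands numbered 6915 and 5264 at 200 bp, 1088 and 715 at 800 bp, and 1442 and 781 at a ratio of 1.5. Denser and less dense islands numbered 441 and 376 with 50 reads in both, 427 and 267 with widths within 200 bp and 110 and 127 at a fold of 2, and 1497 and 818 over the joint span. 

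By wild-type width, widened minus narrowed islands came to 46.2, 24.1, 4.27, −11.6 and −8.50 percentage points from the narrowest to the widest class, and by Setd5+/- width to −26.8, −6.72, 8.87, 18.9 and 36, against 8.25, 10.7, 7.06, 3.35 and 16.4. A class set by 1 genotype selects on the width in that genotype, and the part this plays was not tested. The median log2 density moved to −0.10 (up to 600 bp), 0.00079 (up to 2400 bp), −0.012 (up to 4800 bp) and −0.065 (over 4800 bp) by wild-type width, and to 0.19, 0.090 and −0.075 by Setd5+/- width for up to 600, 1200 and 4800 bp.

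Within 1 kb of a gene end lay 65.2%, 30.9% and 16.5% of shared, wild-type only and Setd5+/- only islands with all annotated genes, 47.8%, 18.6% and 6.26% by centre, 52.0%, 16.1% and 5.07% at starts, and 63.5%, 34.1% and 10.5% with at least 50 reads. Genes marked in Setd5+/- cells only numbered 302 over the end base, 254 without the lowest 25% and 64 with at least 50 reads, where 174 were in wild type only. The median log2 was 0.40 on chromosome 1 and 0.21 on chromosome 15 with widths within 200 bp, and 0.53, 0.11 and 0.28 on chromosomes 1, 4 and 15 over the joint span. Requiring 50% overlap gave 44.9% H3K27ac, 41.0% H3K4me1 and 2.64% H3K27me3 at shared islands, 8.65% H3K27me3 at wild-type only islands, and 44.9% H3K4me1 and 2.68% H3K27me3 at Setd5+/- only islands. With 1 library per genotype, culture, library and genotype cannot be told apart, and islands under 50 reads limit every count of islands in 1 genotype only.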

Other observations

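Islands of 1 genotype only were also counted along the chromosomes. Over 1812 bins of 1 Mb with islands on the 16 autosomes, the mean was 1.19 wild-type only and 1.22 Setd5+/- only islands, and 34 and 53 bins held 5 or more. Whether these counts differ from an even spread, or follow the number of all islands per bin, was not tested. The bin from 123 to 124 Mb of chromosome 8, which holds the genes from Sult5a1 over Spire2 and Tubb3 to Gas8, had 21 Setd5+/- only islands between 123135201 and 123631400, of 25 to 69 reads (median 34), with 1 of them within 1 kb of a gene end. The 29 shared islands of that bin had a median scaled log2 density of 0.06. The bin from 52 to 53 Mb of chromosome 6, which holds the Hoxa cluster, had 9 Setd5+/- only islands. Another 8 lay from 53 to 54 Mb of chromosome 12 in and around Akap6 and Npas3. The largest wild-type only count, 10, was from 106 to 107 Mb of chromosome 5 around Barhl2. These bins were picked after their counts were seen.

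The island with most reads in both genotypes lay on chromosome 13 (83712801 to 83742800, 30.0 kb, with 6313 reads in wild type and 6055 in Setd5+/- cells) over Mir9-2, a gene of the neural microRNA miR-9, and C130071C03Rik. The widest islands were instead on chromosome 8 between 20121001 and 20554800, reaching 30.6 kb (wild type) and 36.8 kb (Setd5+/-), over annotated genes such as 2610005L07Rik and 6820431F20Rik, many of them predicted. One of them was 15.8 kb in wild type with 1684 reads and 36.8 kb with 2583 reads in Setd5+/- cells, and another was 30.6 kb with 2250 reads and 14.0 kb with 1574 reads, so neighbouring islands differed in opposite directions. Away from gene ends, an island inside Sox2ot, the transcript overlapping Sox2, went from 2.4 kb with 86 reads in wild type to 7.4 kb with 963 reads in Setd5+/- cells, and one in Tcf12, a helix-loop-helix factor gene, had 6.2 kb with 891 reads and 11.6 kb with 1496 reads. An island 3.1 kb from the nearest gene end, in Myt1, a zinc finger gene of neural cells, had 170 and 25 reads.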
